A study of Mus musculus with 4 samples.

Results

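The Hox genes are the 39 genes of the deposited expression table, out of 22073, whose symbol names 1 of the 4 mammalian Hox clusters followed by a number. They were chosen by symbol alone, so every member is counted, including those near 0. The libraries hold right testis RNA of 4 mice of the KM strain, all grown to maturity. In 2 hemicastrated mice the left testis had been taken out before puberty, and 2 control mice had a sham operation at that time and kept both testes. The design text and the labels give 2 mice per group, while the protocol text speaks of 3. The extraction protocol states that the 4 libraries came from separate individuals, and no pooling is described. The labels give the molecule as genomic DNA, but poly(A) RNA is what the protocol describes, and the table is taken here as expression. Values are FPKM, that is, fragments scaled to transcript length and to the mapped fragments of the library, so levels of different genes can be compared per length.

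Hox genes encode homeodomain transcription factors that give cells along the head-to-tail axis of the embryo their regional identity. The paralogue number follows the order of the genes on the chromosome: low numbers act towards the head, high numbers towards the tail, and genes with the same number in different clusters descend from 1 ancestral gene. In the male reproductive tract, posterior members pattern the duct that becomes the epididymis and vas deferens. Loss of Hoxa10 or Hoxa11 shifts the identity of these duct segments, and the group 13 genes Hoxa13 and Hoxd13 are needed for the accessory glands. Inside the seminiferous tubules Hoxa4 is known as a Hox gene of male germ cells. Hox proteins bind DNA with partners of the TALE homeodomain family (Pbx, Meis and Pknox), and Polycomb complexes keep the clusters silent where they are not used.

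Start-site sequences are shown for 3 members that were lower in both hemicastrated libraries than in both controls (Hoxb8, Hoxa10 and Hoxb4) and for Hoxd8, a well-expressed member with overlapping groups. They come from RefSeq on GRCm38.p6 and run 5′ to 3′ on the gene's strand, from 250 bases before the start site to 50 bases after it. Capitals mark the homeodomain core TAAT and the PBX-HOX and MEIS motifs defined below, on either strand. The Hoxb8 window is chr11:96281655-96281954 on the plus strand, that of Hoxa10 is chr6:52240805-52241104 on the minus strand, that of Hoxb4 is chr11:96318017-96318316 on the plus strand, and that of Hoxd8 is chr2:74704365-74704664 on the plus strand.
Hoxb8: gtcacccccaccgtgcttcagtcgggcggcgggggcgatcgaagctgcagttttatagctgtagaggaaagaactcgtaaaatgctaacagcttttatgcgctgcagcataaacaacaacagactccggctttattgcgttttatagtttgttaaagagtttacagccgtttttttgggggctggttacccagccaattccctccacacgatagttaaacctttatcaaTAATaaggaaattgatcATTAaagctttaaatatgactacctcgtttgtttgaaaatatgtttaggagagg
Hoxa10: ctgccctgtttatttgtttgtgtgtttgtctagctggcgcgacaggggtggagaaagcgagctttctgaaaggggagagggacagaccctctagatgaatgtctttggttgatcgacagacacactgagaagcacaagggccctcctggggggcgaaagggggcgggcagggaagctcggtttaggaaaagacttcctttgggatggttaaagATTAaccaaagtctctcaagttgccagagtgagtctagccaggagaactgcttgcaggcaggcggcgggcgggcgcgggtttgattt
Hoxb4: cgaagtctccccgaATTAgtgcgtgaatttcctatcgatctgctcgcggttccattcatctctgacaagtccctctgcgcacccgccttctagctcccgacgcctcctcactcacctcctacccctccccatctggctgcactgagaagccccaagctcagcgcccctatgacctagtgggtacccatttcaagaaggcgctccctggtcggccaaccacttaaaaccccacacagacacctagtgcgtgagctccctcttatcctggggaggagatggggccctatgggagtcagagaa
Hoxd8: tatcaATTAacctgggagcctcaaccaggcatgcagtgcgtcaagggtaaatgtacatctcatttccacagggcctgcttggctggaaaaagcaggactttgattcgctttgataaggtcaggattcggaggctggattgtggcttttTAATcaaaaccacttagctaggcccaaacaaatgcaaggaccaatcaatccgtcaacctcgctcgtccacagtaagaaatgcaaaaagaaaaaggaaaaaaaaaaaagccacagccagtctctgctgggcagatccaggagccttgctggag

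RefSeq start-site windows were held for 22 of the 39 members, 24 windows in all. The core TAAT was in 19 of the 24, against 58.0% of all 32851 windows of the same length. The PBX-HOX motif TGATTNAT, which TAAT can overlap, was in 2 of 24 against 3.22%, and the MEIS motif TGACAG in 2 of 24 against 19.2%. CCAAT was in 15 of 24 against 37.4%, and TATAAA in 4 of 24 against 13.6%. All motifs were searched on both strands. Of the windows printed, those of Hoxb8 and Hoxd8 each held 2 TAAT cores and those of Hoxa10 and Hoxb4 1 each. Hoxa10 has another RefSeq window, not printed, at chr6:52234890-52235189, which held 3. The median number of CpG dinucleotides was 14.5 in the member windows and 7 in all windows. Hoxb8 had 13, Hoxa10 12 in the printed window and 21 in the other, Hoxb4 14 and Hoxd8 6.

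The HoxB cluster also carries microRNA genes, and one of them, for miR-196a-5p, has a near-complete target site in Hoxb8. The same mature miR-196a-5p is also encoded in HoxC at chr15:102973365-102973386. In HoxA, miR-196b-5p has the same bases 2 to 8. The sequences are shown because Hoxb8 had the largest log2 fold change of the members when 1 was added to the FPKM. In miR-196a-5p (mature form at chr11:96265187-96265208, between Hoxb13 and Hoxb9) and miR-10a-5p (chr11:96317186-96317208, between Hoxb5 and Hoxb4), capitals mark the seed, bases 2 to 8. In the Hoxb8 site, in its 3′ UTR at chr11:96284888-96284909 on GRCm38, capitals mark the bases opposite the seed.
miR-196a-5p: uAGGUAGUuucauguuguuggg
miR-10a-5p: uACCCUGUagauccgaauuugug
Hoxb8 site: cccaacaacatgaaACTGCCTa

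Over its 22 bases the Hoxb8 site differs from the full complement of miR-196a-5p at 1 base, which forms a G:U wobble pair. In the GENCODE transcripts of the 21806 genes of the table that have a symbol, Hoxb8 was the 1 gene with a site of at most 2 mismatches. MicroRNA levels were not analysed here.

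Most Hox RNA in these testes came from a pair of genes. Hoxa4 stood at 58.9 and 57.7 FPKM in control mice and 48.7 and 53.4 FPKM after hemicastration, and Hoxd8 at 14.1 and 13.3 against 14.6 and 13.6 FPKM. Hoxa4 was a little lower in both hemicastrated libraries, and the groups of Hoxd8 overlapped. Together they made up 83.2% and 84.8% of the summed Hox FPKM in control mice and 90.1% and 91.1% after hemicastration. The sum over all 39 members was 87.7 and 83.8 FPKM in control mice and 70.2 and 73.6 FPKM after hemicastration, or 0.0205% to 0.0253% of a library's summed FPKM. Of the 39 members, 7 reached 1 FPKM in at least 1 library, 11 stayed under 0.1 FPKM in all 4, and 3 of those 11 (Hoxc12, Hoxc13 and Hoxd12) were listed at 0 throughout.

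**Figure D1:**
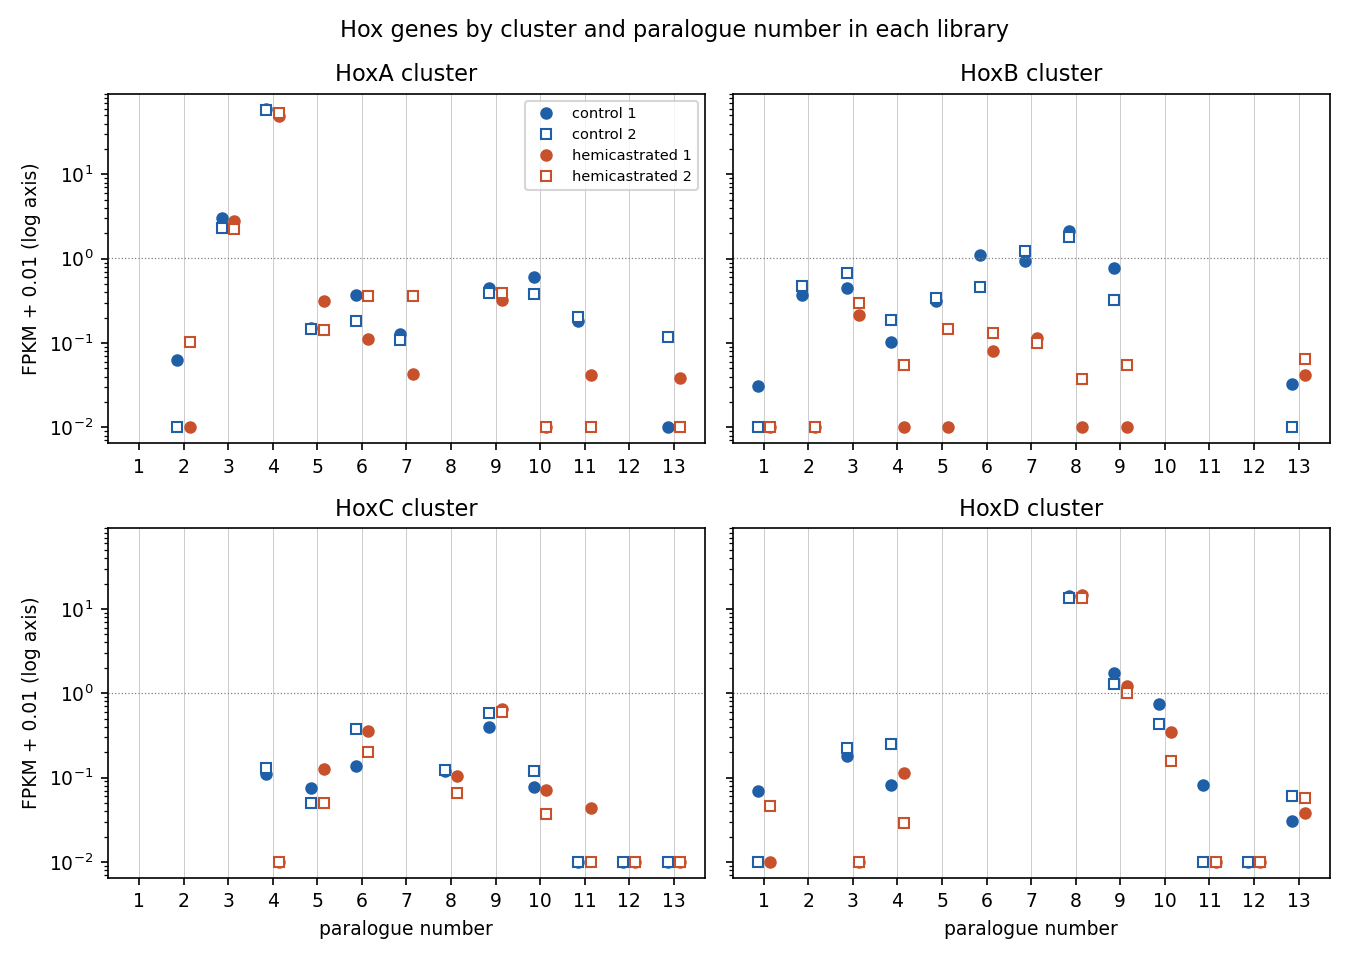
FPKM of 38 Hox genes, with 0.01 added on a log axis, against paralogue number, 1 panel per cluster. Circles and squares are single libraries, blue for control and orange for hemicastrated, and the dotted line marks 1 FPKM. Hoxa4 and Hoxd8 stand above all others in each library, and from Hoxb2 to Hoxb9 both orange points lie below both blue ones.

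In the controls the order of levels after Hoxa4 and Hoxd8 was Hoxa3, Hoxb8, Hoxd9, Hoxb7, Hoxb6 and Hoxd10. From Hoxa4 down to Hoxb7, neighbours in this order did not overlap in their control values, whereas Hoxb7 overlapped Hoxb6 and Hoxb6 overlapped Hoxd10. In the hemicastrated mice Hoxa4, Hoxd8, Hoxa3 and Hoxd9 led, followed by Hoxc9 and Hoxa9. Hoxb8 was number 4 by control mean and number 30 by hemicastrated mean.

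Among the anterior paralogues (1 to 3), Hoxa3 was the main member and stood at 3.01 and 2.32 FPKM in control mice against 2.75 and 2.25 FPKM, with overlapping groups. Hoxb2 was at 0.361 and 0.470 FPKM in control mice and listed at 0 in both hemicastrated libraries. Hoxb3 was at 0.437 and 0.674 FPKM against 0.206 and 0.292 FPKM. Hoxb2 and Hoxb3 were thus lower in both hemicastrated libraries, as was Hoxd3, which was at 0.169 and 0.217 FPKM against 0 and 4.71e-05 FPKM. Hoxa2, Hoxb1 and Hoxd1 were under 0.1 FPKM in every library.

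The central paralogues (4 to 8) held the highest members, Hoxa4 and Hoxd8. They also held Hoxb8, which had the largest log2 fold change between the groups with 1 added to the FPKM. By the plain ratio of group means, other members such as Hoxa10, Hoxb2, Hoxc4 and Hoxd3 lay further below their control level. Apart from Hoxa4 and Hoxd8, their highest control means were those of Hoxb8, Hoxb7 and Hoxb6. Hoxb8 was at 2.10 and 1.79 FPKM in control mice, listed at 0 in hemicastrated 1 and at 0.0273 FPKM in hemicastrated 2. Hoxb7 was at 0.927 and 1.22 FPKM against 0.103 and 0.0909 FPKM. Hoxb6 was at 1.09 and 0.451 FPKM against 0.0701 and 0.122 FPKM. These 3 neighbouring genes were lower in each hemicastrated library than in each control, by a wide gap for Hoxb8 and Hoxb7.

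The other central HoxB genes showed the same order at lower levels. Hoxb5 was at 0.306 and 0.333 FPKM in control mice, listed at 0 in hemicastrated 1 and at 0.136 FPKM in hemicastrated 2. Hoxb4 was at 0.0926 and 0.180 FPKM, listed at 0 in hemicastrated 1 and at 0.0448 FPKM in hemicastrated 2. Paralogues 5 to 7 of the HoxA cluster had overlapping groups. Hoxa5 was at 0.142 and 0.138 FPKM in control mice against 0.305 and 0.132 FPKM. Hoxa6 stood at 0.360 and 0.172 against 0.101 and 0.353 FPKM, and Hoxa7 at 0.118 and 0.0978 against 0.0324 and 0.346 FPKM. In each of these 3 genes the hemicastrated libraries lay on different sides of at least 1 control value. Of the HoxC genes in this range, Hoxc4 was at 0.0991 and 0.119 FPKM in control mice and listed at 0 in both hemicastrated libraries. Hoxc8, at 0.110 and 0.112 against 0.0942 and 0.0553 FPKM, was lower by a small gap. Hoxc6 overlapped, at 0.126 and 0.371 FPKM against 0.344 and 0.189 FPKM, and so did Hoxc5 and Hoxd4, which were between 0.0188 and 0.238 FPKM.

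The posterior paralogues (9 to 13), the ones known for patterning the duct and its glands, were low throughout. Their sum was 4.99 and 3.79 FPKM in control mice and 2.72 and 2.28 FPKM after hemicastration, and the hemicastrated mean was 0.569 of the control mean. For paralogues 1 to 8 this ratio was 0.853 with Hoxa4 and Hoxd8 and 0.453 without them. No gene was left out of paralogues 9 to 13, and the HoxB genes were kept in both. Hoxb2 to Hoxb9, of which Hoxb9 is posterior, summed to 6.07 and 5.43 against 0.380 and 0.757 FPKM. These ratios therefore do not rank the ends of the axis. Hoxd9 was the leading posterior member, at 1.73 and 1.28 FPKM against 1.22 and 0.989 FPKM. Hoxb9 was at 0.756 and 0.311 FPKM in control mice, listed at 0 in hemicastrated 1 and at 0.0445 FPKM in hemicastrated 2. Both were lower in each hemicastrated library than in each control, Hoxd9 by a small gap. Hoxc9 went the other way, at 0.383 and 0.567 FPKM in control mice against 0.641 and 0.585 FPKM, and Hoxa9 overlapped, at 0.444 and 0.379 against 0.311 and 0.387 FPKM.

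All 3 genes of paralogue group 10 were lower in both hemicastrated libraries, an order that 24.5% of all genes above 0 also had. Among genes with a mean under 1 FPKM this share was 24.1%. Hoxa10 was at 0.596 and 0.375 FPKM in control mice and listed at 0 in both hemicastrated libraries. Hoxd10 was at 0.726 and 0.420 FPKM against 0.333 and 0.145 FPKM. Hoxc10, at 0.0679 and 0.108 FPKM against 0.0616 and 0.0271 FPKM, was lower by a very small gap. Hoxa11 was at 0.171 and 0.194 FPKM against 0.0322 and 0 FPKM, while Hoxc11 and Hoxd11 were under 0.1 FPKM in every library. The group 13 genes showed no such order: Hoxa13, Hoxb13 and Hoxd13 were between 0 and 0.108 FPKM in all libraries, and their sum with Hoxc13 was 0.0432 and 0.159 FPKM in control mice against 0.0882 and 0.103 FPKM.

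The sums by cluster differed most in HoxB. Summed over its 10 genes, HoxB RNA was at 6.11 and 5.43 FPKM in control mice and at 0.411 and 0.813 FPKM after hemicastration, which is 9.43-fold higher in the control mean. HoxA summed to 63.8 and 61.5 against 52.2 and 57.0 FPKM, HoxC to 0.853 and 1.32 against 1.29 and 0.896 FPKM, and HoxD to 17.0 and 15.5 against 16.3 and 14.9 FPKM. The HoxA and HoxD sums are mostly Hoxa4 and Hoxd8. Without Hoxa4, HoxA was at 81.7% and 82.3% of its control mean in the hemicastrated libraries, and without Hoxd8, HoxD was at 66.5% and 49.0%. Both of these sums were lower in each hemicastrated library than in each control, and HoxC alone overlapped once Hoxd8 was left out. Over all members without Hoxa4 and Hoxd8 the sum was at 50.5% and 47.5% of its control mean. These sums are a description with no test, and in bulk tissue fewer cells that make a transcript cannot be told apart from less transcript per cell.

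**Figure D2:**
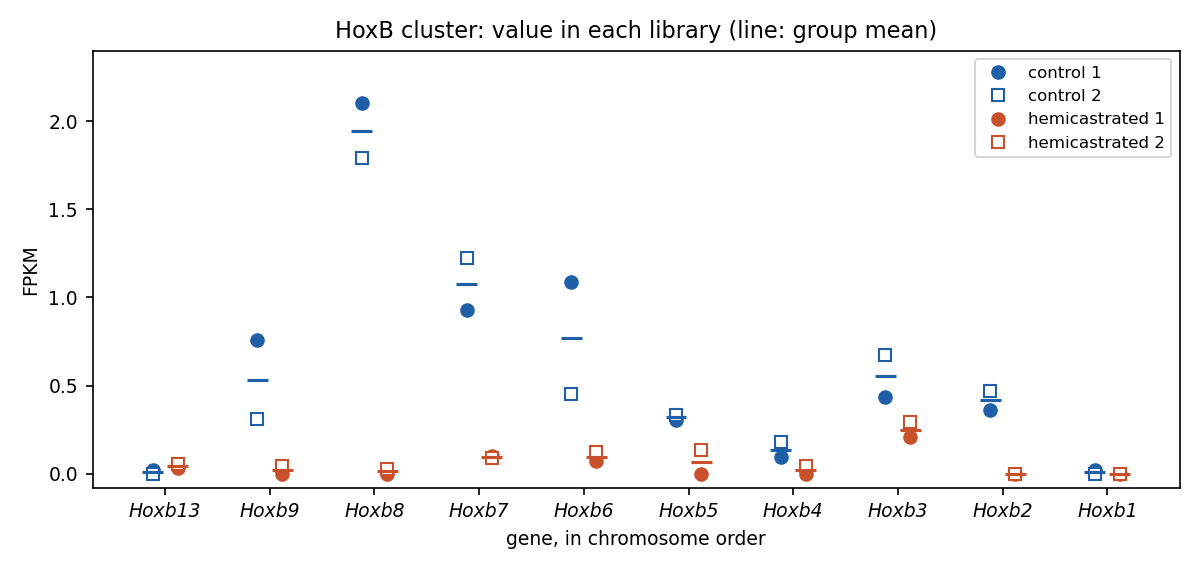
FPKM of the 10 HoxB genes in chromosome order, with 1 point per library and a line at each group mean. The controls peak at Hoxb8 (2.10 and 1.79 FPKM), while the hemicastrated libraries are highest at Hoxb3 (0.206 and 0.292 FPKM).

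Along the cluster, mean control levels were highest at Hoxb8 and lower on both sides, with a smaller peak at Hoxb3. The hemicastrated mean lay below the control mean by 100% at Hoxb2, which was listed at 0, and by 99.3% at Hoxb8, 95.8% at Hoxb9, 91.0% at Hoxb7, 87.5% at Hoxb6, 83.5% at Hoxb4, 78.8% at Hoxb5 and 55.2% at Hoxb3. The cluster's end genes did not follow: Hoxb13, far from the rest of the cluster, was between 0 and 0.0552 FPKM, and Hoxb1 was at 0.0212 FPKM in control 1 and at 0 in the other 3 libraries. Hoxb4, Hoxb6, Hoxb7, Hoxb8 and Hoxb9 share no annotated exon base with another gene. Hoxb3 shares 52.9% and Hoxb2 27.3% of its exon bases with the antisense gene Hoxb3os, and since no step in the library protocol keeps the strand, reads of the sense and antisense genes could not be told apart there.

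Of the 36 members above 0 in any library, 17 were lower in both hemicastrated libraries than in both controls, 2 were higher and 17 overlapped. Over all genes above 0 in any library the share was 24.5% lower and 14.8% higher, and among those with a mean under 1 FPKM it was 24.1% and 12.3%. The 17 lower members were 8 of the 10 HoxB genes (Hoxb2 to Hoxb9), 3 of 11 HoxA genes, 3 of 7 HoxC genes and 3 of 8 HoxD genes. By position they were 3 of 8 anterior, 8 of 15 central and 6 of 13 posterior paralogues, so the lower members were not limited to the posterior groups. Most of the anterior and central ones were Hoxb2 to Hoxb8, so position and cluster cannot be told apart for them. Outside HoxB, the lower anterior and central members were Hoxd3, Hoxa4, Hoxc4 and Hoxc8. The posterior ones were Hoxa10, Hoxa11, Hoxc10, Hoxd9 and Hoxd10. With group means at least 2-fold apart as well, 13 members were lower and 1, Hoxb13, was higher, against 6.5% and 2.82% of all genes above 0, or 13.3% and 6.63% of those with a mean under 1 FPKM. The 13 included 8 HoxB genes, and the rest were Hoxa10, Hoxa11, Hoxc4, Hoxd3 and Hoxd10. Hoxa10, Hoxb2 and Hoxc4 were listed at 0 in both hemicastrated libraries and above 0 in both controls, which held for 1.3% of all genes above 0 and 3.06% of the low ones. The reverse, 0 in both controls and above 0 in both hemicastrated libraries, held for no member and for 0.479% and 1.23% of those genes. An exact 0 in such a table can be a failed estimate. With a gap of at least 0.1 FPKM between the groups the count of lower members was 11, against 16.8% of all genes above 0 and 9.37% of the low ones.

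The test took genes averaging 1 FPKM or more over the libraries, and 4 of the 39 members (Hoxa3, Hoxa4, Hoxd8 and Hoxd9) entered it. Hoxb8 just missed it with an average of 0.980 FPKM, and no HoxB gene entered. None was called lower or higher in limma at an adjusted p under 0.05, against 1.19% of all tested genes called lower and 0.106% called higher. At an unadjusted p under 0.05 the count was also 0, against 6.52% of tested genes lower and 3.98% higher. The log2 fold change, taken as hemicastrated minus control after adding 1 to the FPKM, was -0.19 for Hoxa4 (SE 0.09, limma adjusted p = 0.544) and 0.04 for Hoxd8 (SE 0.10, limma adjusted p = 0.936). It was -0.25 for Hoxd9 (limma adjusted p = 0.670) and -0.06 for Hoxa3 (limma adjusted p = 0.929). The median of these 4 was -0.13, beside -0.03 over all 11343 tested genes. A p above the threshold does not show that their levels were alike.

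With no filter on low values, 36 members could be fitted and Hoxb8 alone passed the threshold. It fell by 1.54 on the log2(FPKM + 1) scale (SE 0.10, limma adjusted p = 0.0197), where 0.629% of 18587 genes were called lower and 0.0161% higher. Hoxb7 had a log2 fold change of -0.92 (limma adjusted p = 0.0610), Hoxb2 one of -0.50 (limma adjusted p = 0.0752) and Hoxa10 one of -0.57 (limma adjusted p = 0.136). At an unadjusted p under 0.05, 12 members were lower and 0 higher, against 6.92% and 3.27% of all genes in that fit, and 8 of the 12 were the genes Hoxb2 to Hoxb9. The median over the 36 members was -0.06 and over the 10 HoxB genes -0.41, beside -0.02 over all genes fitted. Leaving out any 1 library ended the call of Hoxb8, with log2 fold changes of -1.46 without control 1, -1.61 without control 2, -1.52 without hemicastrated 1 and -1.56 without hemicastrated 2 (limma adjusted p 0.238 to 0.501). In those fits no gene of the table was called. For single values, 2 libraries against 2 cannot give an exact two-sided permutation p under 0.33.

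**Figure D3:**
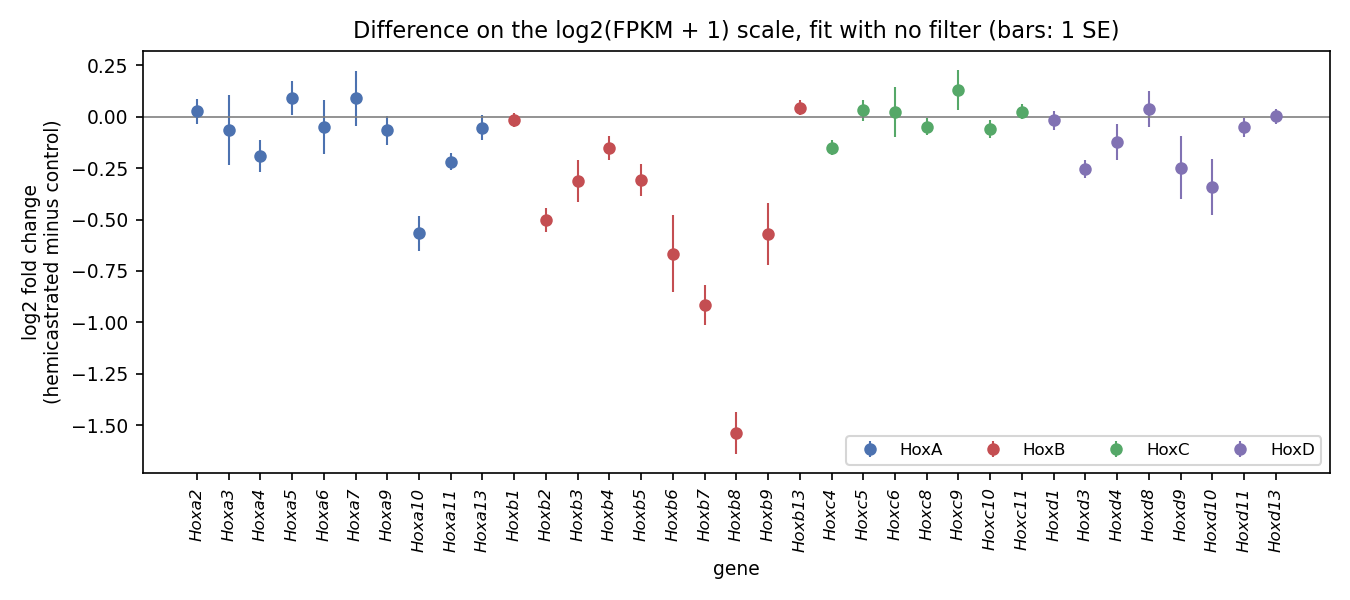
Log2 fold change, hemicastrated minus control with 1 added to the FPKM, of 35 Hox genes above 0, from the limma fit with no filter. Bars are 1 SE and colours mark the clusters. Hoxb8 lies at -1.54, Hoxb7 at -0.92, and the HoxC genes between -0.15 and 0.13.

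Genes next to the clusters gave no call. The 3 nearest genes of the table on each side of each cluster make 24 genes, of which 23 were above 0. Of these, 8 were lower in both hemicastrated libraries and 2 were higher, against 24.5% and 14.8% of all genes above 0. In limma 0 of the 17 tested were called, against 1.19% of all tested genes lower and 0.106% higher. At an unadjusted p under 0.05 the count was also 0, against 6.52% and 3.98%. So few genes cannot show that the neighbours were unchanged. Beside HoxB, the tubulin ligase gene Ttll6 was at 25.7 and 35.6 FPKM in control mice against 27.7 and 23.2 FPKM. On the other side Skap1, which encodes an adaptor of T cells, was at 1.20 and 0.759 against 1.23 and 1.33 FPKM. Calcoco2, at 0.152 and 0.129 against 0.0366 and 0.0330 FPKM, was the 1 HoxB neighbour of 6 that was lower in both hemicastrated libraries. Near HoxD, Lnpk, which encodes a membrane protein of the endoplasmic reticulum, was at 50.8 and 59.8 against 51.2 and 50.5 FPKM. The homeobox genes Evx1 and Evx2, which adjoin HoxA and HoxD, were at 0 in every library and between 0.0464 and 0.0871 FPKM.

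The partners of Hox proteins were expressed in both groups. Of 9 TALE cofactor genes, 6 were tested, 0 were called in limma (0 at an unadjusted p under 0.05), and the median log2 fold change was -0.09. Pbx4, the Pbx gene of the testis, was at 57.7 and 48.1 FPKM in control mice against 50.8 and 64.0 FPKM, and Pknox2 at 17.6 and 17.5 against 15.3 and 17.3 FPKM. Pbx3 was at 1.89 and 2.07 against 1.63 and 1.23 FPKM (log2 fold change -0.30, limma adjusted p = 0.573). Pknox1 was at 10.2, 9.72 and 10.3 FPKM in control 1 and both hemicastrated libraries, and at 45.3 FPKM in control 2. The Meis genes were low, with all values of Meis1, Meis2 and Meis3 between 0.0648 and 0.738 FPKM.

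Chromatin regulators of the clusters did not pass the test either. Of 18 Polycomb genes, 13 were tested and 0 called in limma (1 higher at an unadjusted p under 0.05), with a median log2 fold change of -0.07. Ezh2, the H3K27 methyltransferase, was at 37.2 and 43.3 FPKM in control mice against 38.9 and 39.6 FPKM, and Mtf2, a partner of it, had a log2 fold change of 0.50 (limma adjusted p = 0.460). Of 10 Trithorax and H3K27 demethylase genes, 8 were tested and 0 called (again 1 higher at an unadjusted p under 0.05), with a median of -0.01. Dpy30, a core subunit of H3K4 methyltransferases, was at 66.1 and 72.5 against 87.0 and 97.2 FPKM (log2 fold change 0.40, limma adjusted p = 0.191). Of the Evx and ParaHox genes 4 of 8 were at 0 in all libraries, and no value of the others was above 0.0871 FPKM.

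Several markers of other cell types were also lower in both hemicastrated libraries, while some overlapped or were higher. Any gene lower in the same libraries shares this order with the HoxB genes, and a link between them was not tested. Between the controls the HoxB, smooth muscle and fibroblast sums were higher in control 1. The epididymis, vas deferens and epithelium sums were higher in control 2. Single HoxB genes went either way. Hoxb6, Hoxb8 and Hoxb9 were higher in control 1, and Hoxb2, Hoxb3, Hoxb4, Hoxb5 and Hoxb7 in control 2. A reading of this order was not tested. The sum of 14 epididymis genes was 575 and 823 FPKM in control mice and 1.93 and 2.26 FPKM after hemicastration. Crisp1 alone made up 94.8% and 95.5% of the control sums, and the other 13 genes summed to 29.8 and 36.7 against 1.88 and 2.22 FPKM. Most of what was left after hemicastration was Rnase10, at 2.02 and 1.28 against 1.59 and 1.70 FPKM, with overlapping groups. Of these 14, 3 of 4 tested were called lower (Crisp1, Adam7 and Rnase9), while the epididymal lipocalins Lcn5, Lcn8 and Lcn10 and the defensin Defb15 were at 0 in all 4 libraries. Of 9 vas deferens and accessory gland genes 2 were tested, and the aldo-keto reductase of the vas deferens, Akr1b7, was called lower, at 33.6 and 57.8 against 0.399 and 0.236 FPKM (log2 fold change -5.10). The seminal vesicle gene Svs5 was not called, at 1.51 and 1.93 against 3.26 and 2.90 FPKM (log2 fold change 0.59, limma adjusted p = 0.216). In all, 3 of these 9 genes were lower and 2, Svs5 and Svs6, were higher in both hemicastrated libraries, and without Akr1b7 the list summed to 2.81 and 3.60 against 4.00 and 3.55 FPKM. Among 8 epithelial genes all were lower in both hemicastrated libraries and 3 of 4 tested were called lower. One of these 3, the simple epithelium keratin Krt19, was at 3.01 and 3.86 FPKM in control mice, listed at 0 in hemicastrated 1 and at 0.0374 FPKM in hemicastrated 2. Among 10 smooth muscle genes, 5 of 9 tested were called lower. For these lists the shares over all genes were 24.5% lower in both hemicastrated libraries and 1.19% of tested genes called lower.

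**Figure D4:**
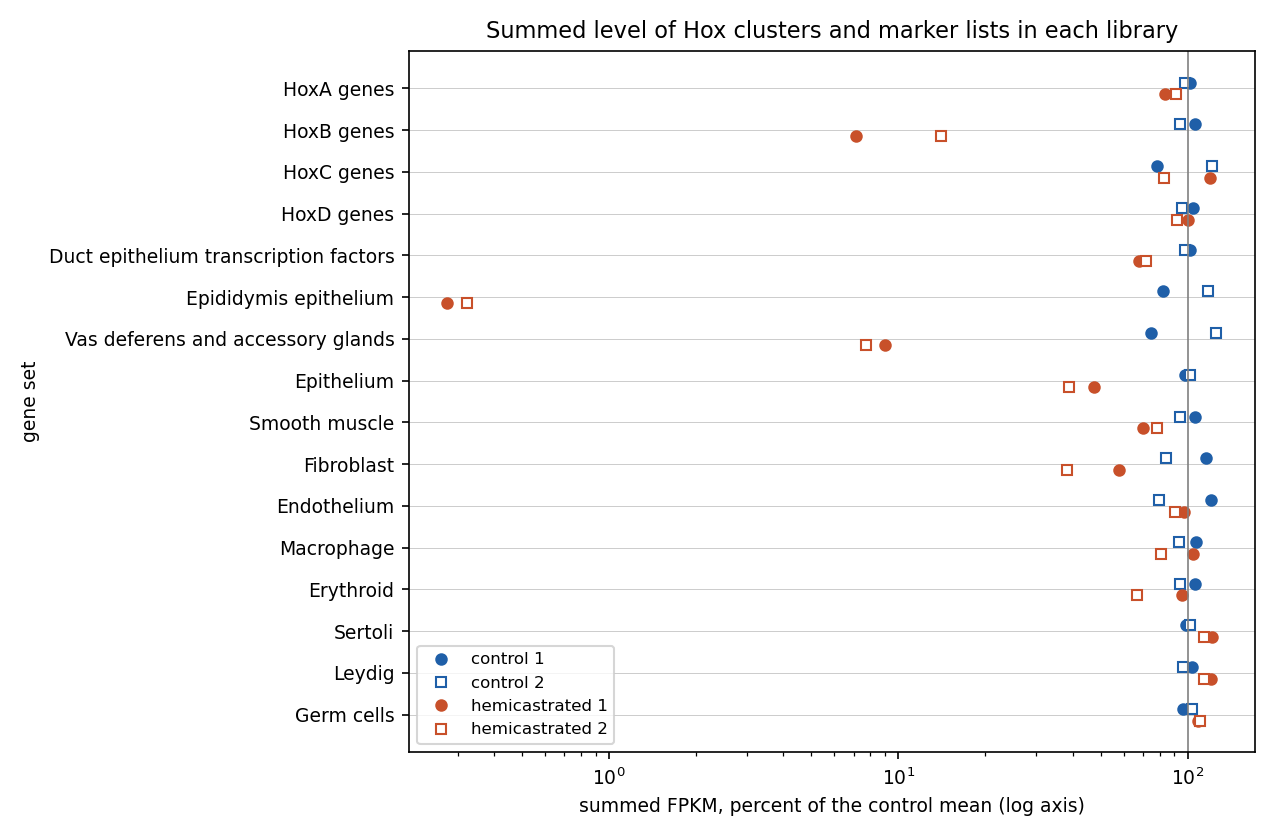
Summed FPKM of the 4 Hox clusters and of 12 marker lists in each library, as a percent of the control mean, on a log axis. HoxB is at 7.13% and 14.1% in the hemicastrated libraries, and the vas deferens and accessory gland list at 9.01% and 7.75%. The epididymis list is at 0.276% and 0.324%, and the epithelium list at 47.5% and 38.9%. HoxA, HoxC and HoxD lie between 82.6% and 119%. Single genes carry several sums: without Hoxd8, HoxD is at 66.5% and 49.0%, and without Crisp1 the epididymis list is at 5.66% and 6.68%. Without Akr1b7 the vas deferens and accessory gland list is at 125% and 111%, and without Epcam the epithelium list is at 8.78% and 10.7%.

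Lists of other cell types gave no call. The transcription factors of duct epithelium summed to 10.7 and 10.3 FPKM in control mice against 7.15 and 7.53 FPKM, with 0 of 3 tested called in limma and 1 lower at an unadjusted p under 0.05. Of these, Pax8 was at 1.34 and 1.41 against 0.466 and 0 FPKM, and Emx2 at 1.91 and 2.32 against 1.39 and 1.38 FPKM. Fibroblast genes summed to 60.8 and 44.2 against 30.3 and 20.1 FPKM, with 0 of 6 tested called. At an unadjusted p under 0.05, 5 were lower, against 6.52% of all tested genes. Endothelial, macrophage and erythroid sums overlapped between the groups. Germ cell, Sertoli and Leydig genes, the defining markers of the labelled tissue, were present in all libraries and summed to 20915 and 22525, 530 and 548, and 1668 and 1560 FPKM in control mice. Their hemicastrated sums were 109% to 122% of the control means, with 0 of 29 tested genes called in limma, 1 lower and 8 higher at an unadjusted p under 0.05. The Leydig sum was mostly Insl3, at 1272 and 1232 against 1609 and 1484 FPKM. Of the 9 Leydig genes, 2 were lower and 2 higher in both hemicastrated libraries, and the fitted change was downward for 5. Leydig genes thus did not rise as a set. In the Sertoli list, 5 of 12 genes were higher and 0 lower. Cst9 was at 62.8 and 76.7 against 110 and 112 FPKM, and Cst12 at 56.3 and 74.5 against 107 and 109 FPKM. All the lower lists and the HoxB genes are low in the same pair of libraries, and the part of non-testis tissue in the HoxB result was not tested. By group mean, Hoxa4 was at 0.875 and Hoxd8 at 1.03 of its control level. In the hemicastrated libraries the epididymis genes other than Crisp1 summed to 5.66% and 6.68% of their control mean. Which cells made the Hox transcripts was not tested.

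Several members share sequence with other annotated genes, which bears on their values. Exon bases were shared with another gene in 16 of 39 members, on the opposite strand in 10. Hoxd3 shares 62.3% and Hoxd4 52.3% of its exon bases on the same strand with the other and with Gm28230, which was at 0.0274 FPKM in hemicastrated 2 and at 2.73e-09 FPKM or less elsewhere. The low Hoxd3 values are therefore uncertain. Hoxc5 and Hoxc10 share 5.37% and 8.70%, so the split of reads between them is uncertain. Hoxa4 shares 16.0%, Hoxa3 25.4% and Hoxa7 20.4% of their exon bases with genes on the opposite strand, while Hoxd8 shares none. Hoxa11, which was lower in both hemicastrated libraries, shares 35.0% with the antisense gene Hoxa11os. Sense and antisense reads could not be told apart there either.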

How the data were processed

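Per the labels' protocols, poly(A) RNA of the right testis of 4 mice was made into paired-end libraries with no step described that marks the strand. TopHat2 2.0.11, Cufflinks 2.2.1 and GRCm38 appear in the submitters' processing notes, without their roles. The authors deposited FPKM for each gene in each library. Depth is unknown, so no counting interval is given and precision rests on the spread between libraries. Summed FPKM was 343105 to 353135 per library.

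GENCODE M21 (GRCm38) gave symbols to 21806 of 22073 identifiers. The 11343 genes averaging 1 FPKM or more were fitted as log2(FPKM + 1) in limma 3.58.1 (R 4.3.3) with a variance trend, no covariate, two-sided p-values and Benjamini-Hochberg adjustment over all tested genes at 0.05. The fit was tested on simulated data. Alternatives were a pseudocount of 0.1, no filter (18587 genes above 0), a mean of at least 5 FPKM, TPM, quantile normalization, no trend, robust hyperparameters, the replicate number as a block, and leaving out each library.

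Hox genes are named except 1, which is counted in the totals and is not reported here on its own, and those given by counts. From the gene lists the called genes and up to 3 more with the smallest p may be named, and beside each cluster the 3 nearest genes on each side. Genes named outside this rule (such as Pbx4, Ezh2, Pknox1, the Meis genes, Lcn5 and Pax8) were chosen after their values were seen. Members and lists were chosen with earlier results of these data known.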

Additional observations from a re-analysis of the deposited data

How the results depend on the processing

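The counts of Hox genes called lower and higher were 0 in every alternative except 1: with no filter on low values 1 gene, Hoxb8, was lower. The replicate block also gave 0 and 0 among the 4 tested genes, and with no filter Hoxb8 kept a log2 fold change of -1.54 in the block fit (limma adjusted p = 0.0395). Same-numbered libraries of the groups did not deviate together (r = 0.0137 over 11343 genes), so the numbers were not used as pairs. The Hoxb8 log2 fold change was -4.18 with no filter and a pseudocount of 0.1 (limma adjusted p = 0.0212). The median over the tested Hox genes, -0.13, ranged from -0.20 to -0.023 when single libraries were left out, the latter without control 1. Hoxa4 and Hoxd9 had negative log2 fold changes in every fit that held them, while Hoxa3 was negative in 9 of 12 fits and Hoxd8 in 2 of 13. Leaving out single libraries, the hemicastrated over control ratio of the summed level ranged from 0.501 to 0.659 for paralogues 9 to 13 and from 0.829 to 0.876 for paralogues 1 to 8. Without Hoxa4 and Hoxd8, a choice made after seeing the data, the latter was 0.453, below the 0.569 of paralogues 9 to 13. No gene was left out of paralogues 9 to 13, and the HoxB genes were kept, so this does not rank the ends of the axis. With a gap of at least 0.1 FPKM, also chosen after seeing the data, 11 rather than 17 members were lower, the cause being the stricter rule. Most Hox genes lie under 1 FPKM at unknown depth, which limits every value of theirs.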

Other observations

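Hox genes above 0 numbered 34 and 31 in control mice and 24 and 28 after hemicastration. Those at 0.1 FPKM or more numbered 22 and 26 against 14 and 14. The same counts over all genes are not given here, and depth is unknown. Over all genes above 0, 1.3% were at 0 in both hemicastrated libraries and above 0 in both controls, and 0.479% the reverse. Whether the lower counts are particular to Hox genes was not tested. Summed by paralogue number, group 2 was at 0.413 and 0.470 FPKM in control mice against 0 and 0.0917 FPKM, group 7 at 1.05 and 1.32 against 0.136 and 0.437 FPKM, and group 10 at 1.39 and 0.903 against 0.394 and 0.173 FPKM. Group 9 was at 3.31 and 2.54 against 2.17 and 2.01 FPKM. These sums are values with no test.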
